A study of Mus musculus with 24 samples.

Results

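The 10 genes described here encode the acyl-CoA dehydrogenases Acadvl, Acadl, Acadm, Acads, Acad9, Acad10 and Acad11, and the electron transfer flavoprotein system, Etfa, Etfb and Etfdh. They were chosen by symbol out of 27248 gene symbols on the array, with earlier results of these data known. All 10 were measured, through 20 probes. Liver RNA came from male C57Bl/6J mice aged 8 weeks, kept on a chow diet and killed at ZT16, which is 16 h after lights on. Livers lacked the nuclear receptor gene Ppara (PPARaLKO, here LKO) or kept it (PPARaLWT, here WT). Mice of each genotype were fed freely or fasted for 24 h, with 5 animals in each WT group and 6 in each LKO group. The labels used here name neither the Cre driver nor the part of Ppara that was removed. RNA of each liver was labelled with Cy3 and hybridised to Agilent expression arrays.

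Acyl-CoA dehydrogenases carry out the opening step of each turn of mitochondrial beta-oxidation, in which a double bond is put into the acyl chain and electrons pass to a bound flavin. The enzymes differ in the chain length they prefer. Their electrons go to the electron transfer flavoprotein, a dimer of the products of Etfa and Etfb, and from there through the dehydrogenase encoded by Etfdh to ubiquinone in the inner membrane. PPARα is a fatty acid-activated receptor that is known to drive many oxidation genes in the fasted liver, and the crossed design asks how far it is needed for their response to fasting.

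Levels are given as log2 of the probe signal relative to the 75th percentile of its array, so that 1 unit is a doubling. A level is comparable between animals for the same probe and not between genes. The 75th percentile was 444.1 to 614.2 intensity units over the 24 arrays, and 52.2% to 60.6% of spots were well above background. Fed LKO replicate 3 stood apart: its deviation from its group mean had an SD of 0.45 over the 17206 genes tested, against 0.22 to 0.31 in the other animals. It had the lowest level of its group in 7 of the 10 genes and the highest in 1, Acad9, and no call on the 10 genes in any comparison changed when it was left out. All 8 hepatocyte markers were detected, with summed levels of 4970 to 5820 over all animals on the linear scale, relative to the percentile, and none was called between genotypes in either feeding state. On fasting, 2 of the 8 were called higher and 1 lower in WT, where 44.4% of all genes were called. In LKO 4 were called higher and 1 lower, where 49.7% of all genes were called. In whole liver, a smaller share of one cell type and less RNA per cell cannot be told apart. The brighter Ppara probe read 5.29 ± 0.20 (SD, n = 5) in fed WT and 4.63 ± 0.37 (SD, n = 6) in fed LKO, and 5.93 ± 0.13 (SD, n = 5) in fasted WT and 5.07 ± 0.11 (SD, n = 6) in fasted LKO. It was lower in LKO in both states (log2 difference -0.66 when fed and -0.86 when fasted), but a transcript remained detectable, and whether either probe lies in the removed part is not stated.

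In fasted WT livers 9 of the 10 genes rose and 1, Acad9 by its brightest probe, fell, where 44.4% of all genes tested were called in either direction, 22.8% higher and 21.7% lower. For 9 of the 10, all but Etfa, the fed and fasted WT animals did not overlap, against 34.5% of all genes. Their median log2 change was 0.57, against 0.00 over all genes. In LKO livers 3 rose (Acadl, Acadm and Acad11) and 2 fell (Acad9 and Etfa), with a median of 0.04, where 49.7% of all genes were called, 23% higher and 26.7% lower. There 5 had no overlap (Acadvl, Acadl, Acadm, Acad9 and Acad11), against 27.3% of all genes. The largest WT rises were in Acadm, Acadl and Etfdh. The response to fasting differed between genotypes, by the interaction term of the same model, in 8 of the 10, all with the lower change in LKO, where 18.3% of all genes were called, 10.6% with a lower and 7.71% with a higher change. Acadl and Acad9 were the 2 exceptions, and for Acad9 other probes gave another answer, given with that gene. A call means an adjusted p below 0.05 in limma's moderated test, adjusted over all 17206 genes. Values given below for further probes of a gene come from the same model fitted to each kept probe, adjusted over 28115 probes.

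**Figure D1:**
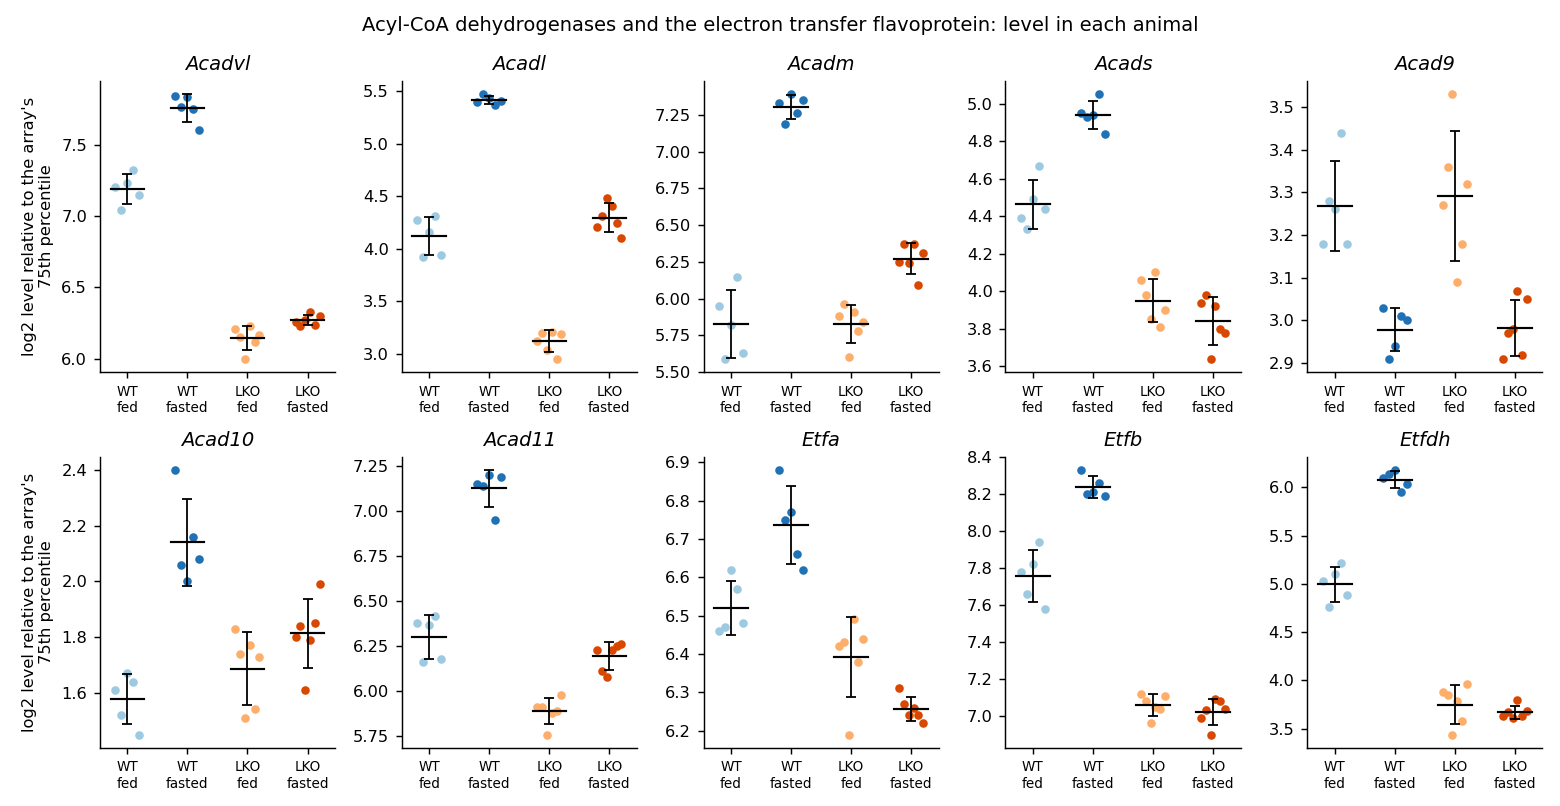
Level of each gene in each animal, in log2 units relative to the array's 75th percentile, by genotype and feeding state. Points are animals (5 per WT group, 6 per LKO group), the line is the mean and the bar 1 SD. The 6 fasted LKO livers for Etfdh lie between 3.61 and 3.80 and the 5 fasted WT livers between 5.95 and 6.18, and the vertical axes differ between panels and do not start at 0.

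The 4 dehydrogenases of the classical chain-length series behaved differently from each other. Acadvl encodes the membrane-bound enzyme for very long chains and has 1 probe, at chromosome 11, 69823722 to 69823781, minus strand (mm9). Its levels were 7.20, 7.04, 7.23, 7.32 and 7.15 in fed WT and 7.84, 7.76, 7.83, 7.75 and 7.60 in fasted WT. In LKO the lowest, median and highest were 6.00, 6.16 and 6.23 when fed and 6.23, 6.27 and 6.33 when fasted. Every LKO liver lay below every WT liver, and the LKO groups met at 6.23. Fasting raised Acadvl 1.48-fold in WT (log2 0.57, SE 0.06, adjusted p = 1.42e-07). In LKO its change was 0.12 (SE 0.05, adjusted p = 0.0546), just short of the threshold, and it passed in 11 of the 36 alternative settings, with values up to 0.24. The genotype difference was 2.06-fold when fed (log2 -1.04) and 2.80-fold when fasted (log2 -1.49).

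Acadl encodes the long-chain enzyme and has 1 probe, at chromosome 1, 66877452 to 66877511, minus strand (mm9). It read 4.27, 3.92, 4.16, 4.31 and 3.94 in fed WT and 5.40, 5.47, 5.43, 5.37 and 5.41 in fasted WT. In LKO the lowest, median and highest were 2.95, 3.15 and 3.21 when fed and 4.10, 4.27 and 4.48 when fasted. Fasted LKO livers thus overlapped fed WT livers, while the other pairs of groups were apart. Acadl rose 2.45-fold in WT (log2 1.30, SE 0.08, adjusted p = 3.2e-10) and 2.26-fold in LKO (log2 1.18, SE 0.07, adjusted p = 2.01e-10). The difference of these responses was -0.12, with a 95% interval from -0.35 to 0.11 and adjusted p = 0.506. Acadl was 2.01-fold lower in LKO when fed (SE 0.08 on the log2 scale, adjusted p = 3.37e-08) and 2.18-fold lower when fasted (log2 -1.12, SE 0.08).

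Acadm encodes the medium-chain enzyme and has 1 probe, at chromosome 3, 153585469 to 153585528, minus strand (mm9). Its levels were 5.95, 5.59, 5.82, 6.15 and 5.63 in fed WT and 7.33, 7.19, 7.39, 7.26 and 7.35 in fasted WT. In LKO the lowest, median and highest were 5.60, 5.86 and 5.96 when fed and 6.09, 6.28 and 6.37 when fasted. The fed groups of both genotypes overlapped, and the fasted LKO livers lay between them and the fasted WT livers, overlapping the highest fed WT animal. Fasting raised Acadm 2.78-fold in WT (log2 1.47, SE 0.09) and 1.36-fold in LKO (log2 0.44, SE 0.08, adjusted p = 0.00018). When fed the genotype difference was 0.00, with a 95% interval from -0.18 to 0.18, and when fasted it was -1.03 (SE 0.09, adjusted p = 1.74e-08).

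Acads encodes the short-chain enzyme and has 1 probe, at chromosome 5, 115560531 to 115560590, minus strand (mm9). It ranged in WT from 4.33 to 4.67 when fed and 4.84 to 5.05 when fasted, and in LKO from 3.81 to 4.10 and 3.64 to 3.98. The order of the groups was fasted WT, fed WT, and then the LKO groups, which overlapped each other. Fasting raised it 1.39-fold in WT (log2 0.48, SE 0.08), and the LKO value was -0.11 (SE 0.07, adjusted p = 0.212). The genotype difference was -0.52 when fed and -1.10 when fasted.

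**Figure D2:**
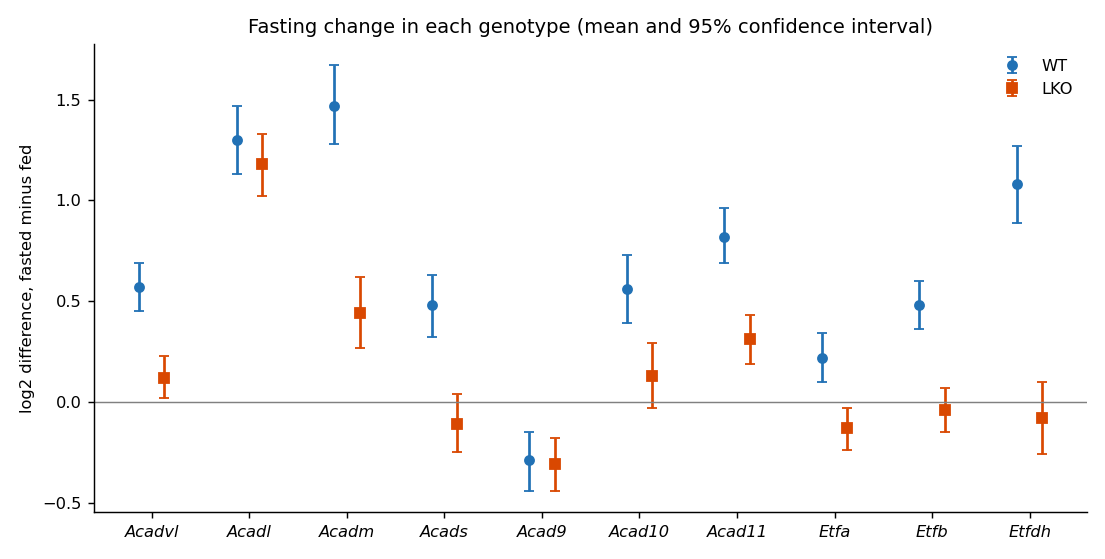
Change of each gene on fasting in WT (circles) and LKO (squares), as the log2 difference of fasted minus fed, with 95% confidence intervals from the model over all 22 animals. Acadl rose by 1.30 in WT and 1.18 in LKO, whereas Etfdh rose by 1.08 in WT and had a value of -0.08 in LKO.

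Whether a pair of these enzymes changed unequally was tested on the difference of their log2 levels within each animal, which does not depend on the scaling between arrays. Exact two-sided permutation tests over animals were run on 9 pairs in 4 comparisons, with p-values adjusted over these 36 tests, and 28 passed. The brightest probe stood for each gene, so these p-values cover the spread between animals and not unequal responses of probes. Acadvl, Acadl, Acadm and Acads have 1 probe each, so this could not be checked for them. Where a gene had several, its probes differed. Between fasted genotypes Etfdh gave -2.41 and -1.75, and Etfa -0.48, -0.56 and -0.74. In WT, Acadl and Acadm both rose more than Acadvl and Acads, with differences of 0.73 to 1.00 in size (exact permutation adjusted p = 0.011 for each of these 4 pairs, from the smallest p that 5 against 5 animals allow). Acadvl and Acads differed by 0.09 in WT (exact permutation adjusted p = 0.0952). In LKO the order was Acadl, Acadm, Acadvl and Acads, and all 6 pairs of the 4 were unequal. Acadl exceeded Acadm there by 0.73, whereas in WT Acadm exceeded Acadl by 0.18.

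Between genotypes, 5 of the 6 dehydrogenase pairs were unequal in the fed state and 3 in the fasted state. In the fed state Acadvl and Acadl were lower by amounts that differed by only 0.04 (exact permutation adjusted p = 0.581), while each was lowered more than Acads, and Acads more than Acadm. In the fasted state Acadl, Acadm and Acads were lowered by 1.03 to 1.12, and none of their 3 pairs passed. Acadvl was lowered further than each of them, by 0.36 to 0.45.

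By its brighter probe, Etfdh had the largest genotype difference of the 10 genes. It encodes the iron-sulfur flavoprotein that hands electrons from the electron transfer flavoprotein to ubiquinone, and its brighter probe lies at chromosome 3, 79407806 to 79407865, minus strand (mm9). Levels were 5.03, 4.76, 5.10, 5.22 and 4.88 in fed WT and 6.10, 6.14, 6.18, 5.95 and 6.03 in fasted WT. In LKO the lowest, median and highest were 3.44, 3.82 and 3.96 when fed and 3.61, 3.65 and 3.80 when fasted. The LKO groups overlapped each other and lay well below both WT groups. Fasting raised Etfdh 2.11-fold in WT (log2 1.08, SE 0.09, adjusted p = 1.77e-08), and the LKO change was -0.08, with a 95% interval from -0.26 to 0.10. Etfdh was 2.38-fold lower in LKO when fed (log2 -1.25, SE 0.09, adjusted p = 9.22e-09) and 5.32-fold lower when fasted (log2 -2.41, SE 0.09, adjusted p = 7.34e-14). A second probe, designed on the Ensembl transcript ENSMUST00000149511 (chromosome 3, 79423588 to 79423647), gave smaller genotype differences of -0.68 and -1.75 with the same directions, and a WT rise of 1.27.

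The flavoprotein's subunits did not move equally. Etfb, which encodes the beta subunit, read 7.78, 7.66, 7.82, 7.94 and 7.58 in fed WT and 8.33, 8.20, 8.21, 8.26 and 8.19 in fasted WT. In LKO the lowest, median and highest were 6.96, 7.07 and 7.12 when fed and 6.90, 7.03 and 7.09 when fasted. Every WT liver lay above every LKO liver, and the LKO groups overlapped each other. Etfb rose 1.40-fold in WT (log2 0.48, SE 0.06), had a change of -0.04 in LKO (95% interval from -0.15 to 0.07), and was lower in LKO by 0.70 when fed and 1.22 when fasted. A further Etfb probe is designed on a transcript that RefSeq numbers as non-coding, NR_075104, and spans chromosome 7, 50709896 to 50711851; its 4 values were 0.52, -0.04, -0.76 and -1.32 in the same order.

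Etfa, which encodes the alpha subunit, ranged in WT from 6.46 to 6.62 when fed and 6.62 to 6.88 when fasted, and in LKO from 6.19 to 6.49 and 6.22 to 6.31. It rose 1.16-fold in WT (log2 0.22, SE 0.06, adjusted p = 0.00416), with groups that touched. Its LKO change was -0.13 (SE 0.05, adjusted p = 0.0378), and -0.03 after quantile normalization. That call was lost under 17 of the 36 alternative settings, among them 7 of the 14 that kept all animals. The others each left out 1 LKO animal. The genotype difference was -0.13 when fed (adjusted p = 0.255) and -0.48 when fasted (adjusted p = 9.66e-07). The difference of its responses was -0.35 (adjusted p = 0.00342), but -0.17 (0.101) after quantile normalization. The other Etfa probes, on the same RefSeq transcript, gave -0.38 and -0.17 when fed and -0.74 and -0.56 when fasted, and the first of these fed values passed (adjusted p = 0.00127). By the brightest probe of each gene, Etfb was lowered more than Etfa in both states, by 0.57 when fed and 0.74 when fasted. Etfdh was lowered more than Etfb, by 0.56 and 1.19 (exact permutation adjusted p = 0.00458 for each of these 4 values). The fed order of Etfdh and Etfb rests on that Etfdh probe. The second Etfdh probe gave -0.68 when fed, beside -0.70 and -0.76 by the Etfb probes, and -1.75 when fasted, beside -1.22 and -1.32. In LKO none of the 3 pairs differed past the threshold on fasting.

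**Figure D3:**
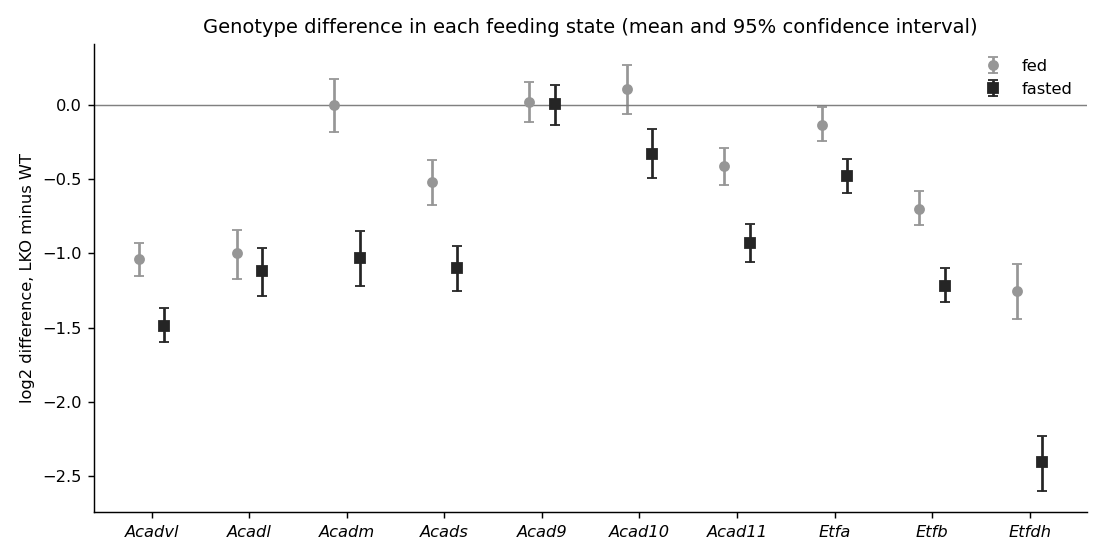
Genotype difference of each gene as the log2 difference of LKO minus WT, in fed (circles) and fasted (squares) livers, with 95% confidence intervals from the same model. Acadm lies at 0.00 when fed and -1.03 when fasted, and Etfdh is the lowest point in both states, at -1.25 and -2.41.

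Across all 10 genes, 6 were lower in LKO when fed (Acadvl, Acadl, Acads, Acad11, Etfb and Etfdh) and none higher, with a median of -0.46, where 3.98% of all genes tested were called and 1.99% were called lower. The same 6 had no overlap between the genotypes, against 3.68% of all genes. In the fasted state 9 were lower, all but Acad9 by its brightest probe, with a median of -1.07, where 38% of all genes were called, 18.1% higher and 19.9% lower. These 9 had no overlap between the genotypes, against 25.3% of all genes. By both probes of its RefSeq transcript Acad9 was lower as well, with the values given with that gene. All 6 endothelial markers were also lower in fasted LKO, with summed levels of 24.2 to 30.1 against 33.7 to 52.2 in fasted WT, and 4 of the 6 were higher on fasting in WT, 1 higher and 2 lower in LKO. None was called between genotypes in fed livers, where 28.2 to 40.8 stood against 30.6 to 38.8. Of 35 detected markers of cell types other than hepatocytes and endothelium, 2 were lower and 2 higher in fasted LKO than in fasted WT. On fasting, 5 of the 35 were higher and 10 lower in WT (44.4% of all genes called). In LKO 3 were higher and 12 lower on fasting (49.7% called). The part of these shifts in the results above was not tested.

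The remaining dehydrogenases are Acad11, Acad10 and Acad9. Acad11, which encodes a long member that also carries a kinase-like domain, ranged in WT from 6.16 to 6.42 when fed and 6.95 to 7.20 when fasted, and in LKO from 5.76 to 5.98 and 6.08 to 6.26. The fasted LKO and fed WT ranges overlapped. It rose 1.77-fold in WT and 1.24-fold in LKO, and the genotype difference widened from -0.41 when fed to -0.93 when fasted. Its 4 probes spanned chromosome 9 from 103967931 to 104029793, and each was higher in fasted WT than in fed WT (0.82 or more) and lower in fasted LKO than in fasted WT (-0.83 to -1.11). In fed livers the 2 probes of the RefSeq transcript NM_175324 passed (-0.41 and -0.46), and those of the Ensembl transcripts ENSMUST00000189133 (-0.14) and ENSMUST00000185819 (-0.15) did not. These Ensembl probes were dimmer, with fed WT means of 0.1 and -3.82 against 6.3 and 2.59. Their SEs were larger, at 0.12 and 0.19 against 0.06 and 0.08. Neither passed for the LKO rise in limma (0.17, adjusted p = 0.233, and 0.42, adjusted p = 0.0617).

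Acad10, which encodes the other member with such a domain, ranged in WT from 1.45 to 1.67 when fed and 2.00 to 2.40 when fasted, and in LKO from 1.51 to 1.83 and 1.61 to 1.99. Only the fasted WT livers stood clear of the others, at 2.00 and above against at most 1.99. Acad10 rose 1.48-fold in WT (log2 0.56, SE 0.08), its LKO change was 0.13 (SE 0.07, adjusted p = 0.159), and the fasted genotype difference was -0.33 (SE 0.08, adjusted p = 0.00256). Acad12, its near relative and next gene on the chromosome, gave 0.66 in WT, 0.17 in LKO and -0.47 between fasted genotypes. Brap, which overlaps Acad10 on the opposite strand, rose in both genotypes (1.09 and 1.02).

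Acad9 depended on the probe. Its product oxidises long-chain acyl-CoA and is also needed to assemble respiratory complex I. The brightest probe, which stands for the gene in the counts above, is designed on the Ensembl transcript ENSMUST00000197344 (chromosome 3, 35971872 to 35971931, plus strand, mm9). It fell on fasting in WT (-0.29, SE 0.07, adjusted p = 0.00165) and in LKO (-0.31, SE 0.06, adjusted p = 0.000342), with genotype differences of 0.02 and 0.01. The 2 probes of the RefSeq transcript NM_172678 lie together at chromosome 3, 35989955 to 35990256. The brighter of them had medians of 2.12 and 2.24 in fed and fasted WT, and 2.23 and 1.64 in LKO. Its 6 fasted LKO livers, at 1.46 to 1.71, lay below all other livers. Its change was 0.04 in WT and -0.56 in LKO, with a difference of responses of -0.60 (adjusted p = 0.00108), and the other RefSeq probe gave -0.06, -0.52 and -0.46 (adjusted p = 0.0223). Between fasted genotypes these 2 RefSeq probes gave -0.56 (limma adjusted p = 1.71e-05) and -0.41 (limma adjusted p = 0.00181). A further probe, on the clone sequence AK049931, was well above background in only 6 of 22 animals.

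**Figure D4:**
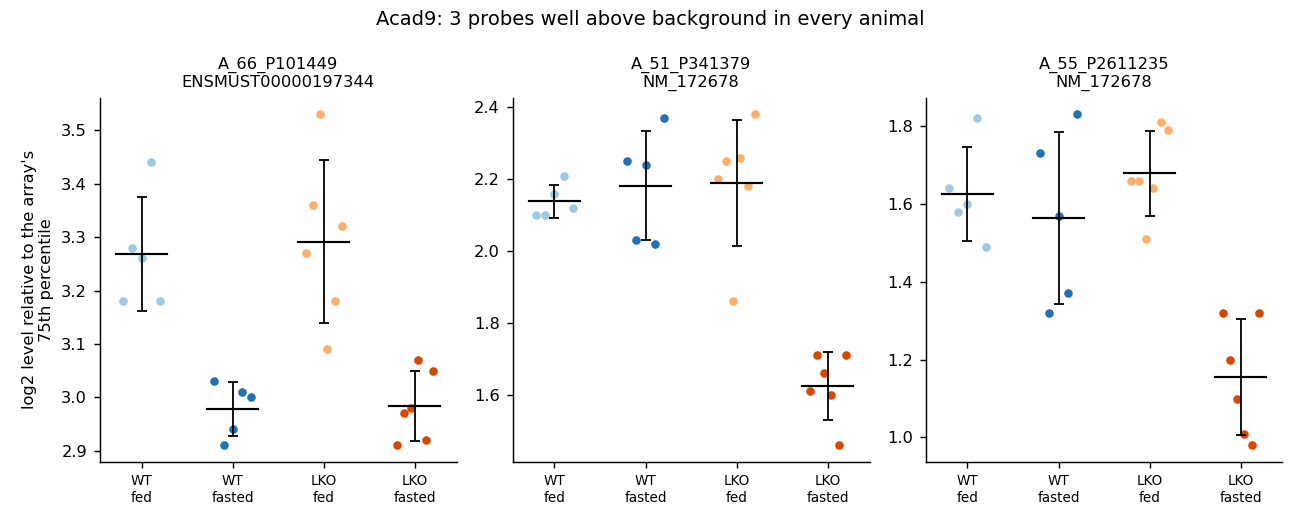
Level of Acad9 in each animal by 3 probes, in log2 units relative to the array's 75th percentile, with the mean and 1 SD per group; the vertical axes differ between panels and do not start at 0. By the probe of ENSMUST00000197344 both fasted groups are lower, with means of 2.98 in each, and by both probes of NM_172678 only the fasted LKO group is lower, with means of 1.63 and 1.16.

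Counted by probe, 16 of the 20 rose and 1 fell in fasted WT, where 41.2% of 28115 kept probes were called. In fasted LKO 4 rose and 6 fell (46.4% called). Between genotypes 10 of 20 were lower when fed (3.78% called) and 18 when fasted (36.5% called), none higher, and 16 had a lower fasting response in LKO (15.9% called).

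Across the 22 animals, which share the 4 groups, Acadvl, Etfb and Etfdh followed each other with Pearson's r of 0.99 for each pair, and Acads joined them at 0.97 to 0.98. Acadl and Acadm had r = 0.89 with each other and 0.68 to 0.81 with Acadvl, Etfb and Etfdh. The closest genes outside the 10 were Cpt2, Hsd17b4 and Hsd17b11 for Etfdh (r = 0.992, 0.990 and 0.988) and Cpt2, Vnn1 and Hsd17b4 for Etfb (0.988, 0.985 and 0.982). For Acadvl they were Qpct, Slc25a20 and Serinc2 (0.986 to 0.988), for Acads Hsd17b11, Hsd17b4 and Fam102a (0.973 to 0.978), and for Acad11 Hadhb, Rtfdc1 and Pex3 (0.976 to 0.991). Acadl was closest to Lgals6, Lgals4 and Slc25a34 (0.982 each), and Acadm to Chkb, Acot2 and Tgoln2 (0.965 to 0.981). Among the 3 closest were Acaa1b and Tmem134 for Etfa (0.952 and 0.944) and Acad12 and Ndufs7 for Acad10 (0.933 and 0.932). For Acad9 by its brightest probe they included Ccdc166 and C4b, a complement gene (0.922 and 0.920). The probes of its RefSeq transcript, which changed otherwise, were not compared in this way. These values rest largely on the differences between the groups and are a description.

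Genes around the dehydrogenase step were counted from lists, to be read against the shares of all genes called: 22.8% higher and 21.7% lower on fasting in WT, 23% and 26.7% in LKO, 1.99% lower between fed genotypes and 19.9% lower between fasted genotypes. Other dehydrogenases that feed the flavoprotein, of amino acid, choline and hydroxyglutarate breakdown, of which 8 were measured, were counted apart: in fasted WT 3 of 8 rose and 1 fell, in LKO none rose and 4 fell, and between genotypes none was called when fed and 4 were lower when fasted. Gcdh, the glutaryl-CoA dehydrogenase, gave 0.03 in WT and -0.64 in LKO, Acad8, the isobutyryl-CoA dehydrogenase, 0.14 and -0.34, and D2hgdh, the D-2-hydroxyglutarate dehydrogenase, 0.20 and -0.16. Of the later steps of mitochondrial beta-oxidation 7 of 7 rose in WT (median 0.86) and 1 rose and 2 fell in LKO (median -0.11). Eci1, an enoyl-CoA isomerase, changed by 1.07 and -0.20, Hadh, the hydroxyacyl-CoA dehydrogenase, by 0.58 and -0.46, and Hadha, of the trifunctional protein, had 0.92 and -0.11. Between genotypes 5 of these 7 later-step genes were lower in LKO when fed (median -0.44) and 7 when fasted (median -1.31).

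In the carnitine shuttle, which brings acyl groups to the dehydrogenases, 3 of 3 rose in WT and 2 of 3 in LKO. Cpt1a had changes of 1.54 and 1.66, Slc25a20 1.25 and 0.47, and Cpt2 1.03 and -0.01. Between genotypes 3 of the 3 shuttle genes were lower in LKO when fed (median -0.95) and 2 when fasted (median -1.99). Of the peroxisomal acyl-CoA oxidases, which pass electrons to oxygen instead of the flavoprotein, 2 of 3 rose and 1 fell in WT, and none rose and 2 fell in LKO. None of these oxidases was called between fed genotypes, and 2 were lower in fasted LKO. Of 6 genes of flavin supply and flavoprotein regulation 3 rose in WT and 1 rose and 1 fell in LKO. Slc25a32, the mitochondrial folate and flavin carrier, rose by 1.59 and 1.17, Lyrm5, which regulates the flavoprotein, had 0.77 and 0.02, and the riboflavin transporter gene Slc52a2 0.44 and -0.12. Of the 6 genes, 1 was lower in LKO when fed and 4 when fasted.

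Downstream, at the acceptor of the electrons, 5 of 10 genes of ubiquinone synthesis rose in WT and none fell, while none rose and 6 fell in LKO. Coq3 gave 0.50 in WT and -0.22 in LKO, Coq4 0.40 and -0.28, and Adck3 -0.14 (not called) and -1.09. None of the 10 was called between fed genotypes, and 7 were lower in fasted LKO. Of 4 complex I assembly partners of Acad9, none rose and 1 fell in WT, and 1 rose and 2 fell in LKO. Ndufaf1 had -0.19 and -0.55, Ecsit -0.22 and -0.30, and Tmem126b 0.19 and 0.23. None of these 4 partners was called between fed genotypes, and 1 was lower in fasted LKO.

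**Figure D5:**
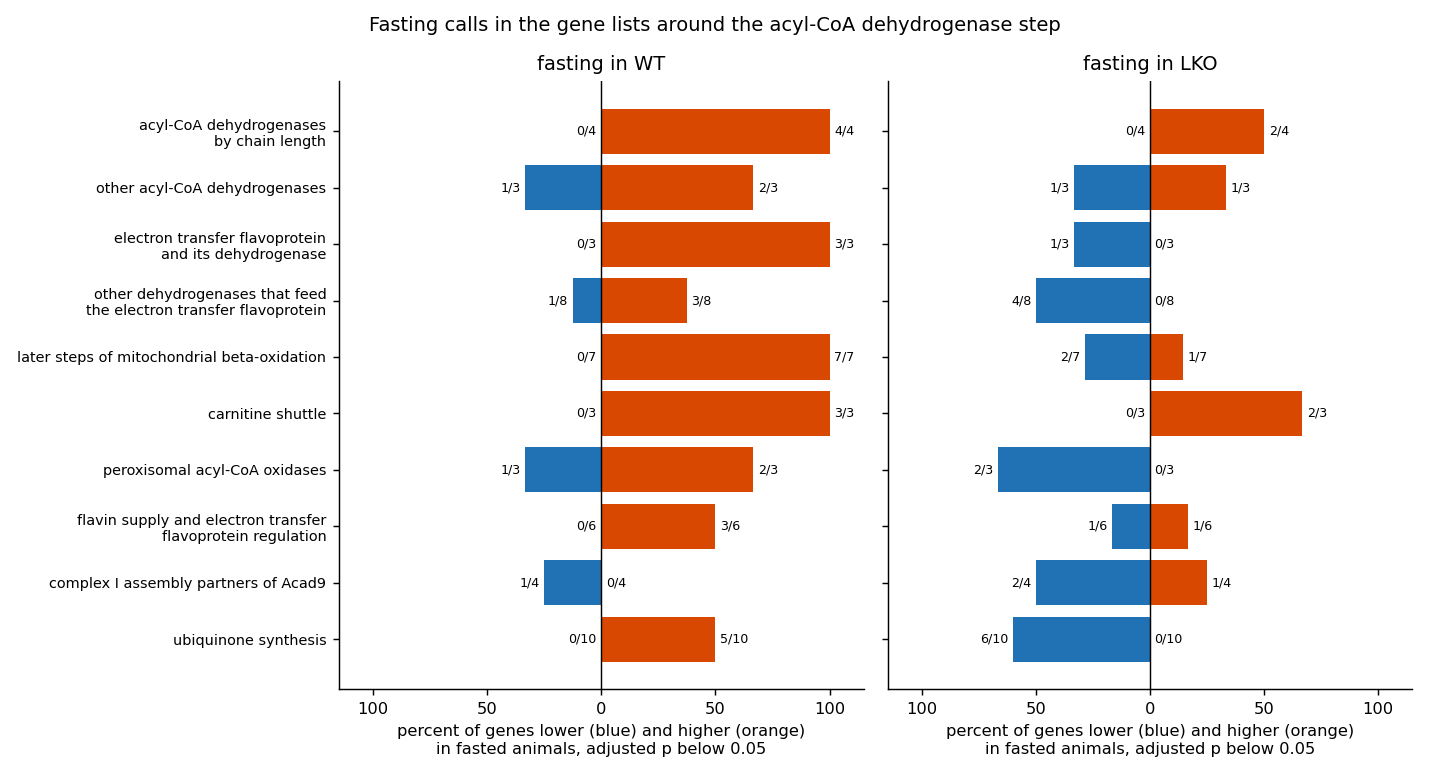
Share of each gene list called higher (to the right) and lower (to the left) on fasting, in percent of the genes measured, in WT (first panel) and LKO (second panel), with the counts beside the bars. For ubiquinone synthesis 5 of 10 genes are higher in WT and 6 of 10 are lower in LKO.

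The nearest protein-coding genes on either side of the 10, of which 19 were tested, gave 7 higher and 5 lower on fasting in WT (44.4% of all genes called) and 6 higher and 6 lower in LKO (49.7%). Between genotypes they gave 1 lower when fed (3.98%), Ccdc144b beside Acad9 at -0.31, and 5 higher and 8 lower when fasted (38%). Ppid, whose gene overlaps that of Etfdh, fell on fasting in both genotypes (-0.46 and -0.27). Its fasted genotype difference was 0.24, in the direction opposite to that of Etfdh. The gene on the other side of Etfdh, 4930579G24Rik, was lower in LKO in the fasted state (-1.95, adjusted p = 5.5e-05), in the same direction as Etfdh, and its fed value was -1.08 (adjusted p = 0.0586). These 2 values rest on dim signals. Mean levels of 4930579G24Rik were -3.78 and -4.1 in fed and fasted WT, and -4.86 and -6.05 in fed and fasted LKO.

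Since 8 of the 10 genes shared a lower fasting response in LKO, their promoters were searched for the repeat that PPARα and its partner RXR are known to bind, AGGTCA written a pair of times with 1 base between the copies, on both strands and in the 250 bases before the start site given by RefSeq (GRCm38.p6). Of the 10 genes 9 had an entry and Acad9 had none. No promoter of the 9 held the repeat with 0 or 1 of its 12 fixed letters changed. Of all 32851 promoter entries 0.484% did, a share so low that none among 9 is no sign of a lack. With up to 2 changes only Etfa matched, as did 3.24% of entries, and with up to 3 Acadm and Etfb as well, as did 21.3%. The best matches of Etfa, Acadm and Etfdh are in capitals below, each written 5′ to 3′ on the strand of the gene, to set the closest match beside the smallest and the largest genotype differences in the fed state among the genes with a WT rise above 1 log2 unit. Etfa lies at chr9:55512244-55512493, Acadm at chr3:153944644-153944893 and Etfdh at chr3:79628768-79629017, all on the minus strand.
Etfa: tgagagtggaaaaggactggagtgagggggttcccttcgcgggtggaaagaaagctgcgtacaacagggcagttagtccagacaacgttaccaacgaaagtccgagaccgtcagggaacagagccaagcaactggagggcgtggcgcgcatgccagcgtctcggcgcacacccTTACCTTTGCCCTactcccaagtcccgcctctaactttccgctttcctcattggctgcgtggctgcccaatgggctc
Acadm: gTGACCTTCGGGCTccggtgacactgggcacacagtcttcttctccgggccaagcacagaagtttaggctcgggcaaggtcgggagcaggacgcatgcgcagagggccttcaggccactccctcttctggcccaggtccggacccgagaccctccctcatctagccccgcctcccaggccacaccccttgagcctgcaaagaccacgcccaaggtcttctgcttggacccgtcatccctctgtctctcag
Etfdh: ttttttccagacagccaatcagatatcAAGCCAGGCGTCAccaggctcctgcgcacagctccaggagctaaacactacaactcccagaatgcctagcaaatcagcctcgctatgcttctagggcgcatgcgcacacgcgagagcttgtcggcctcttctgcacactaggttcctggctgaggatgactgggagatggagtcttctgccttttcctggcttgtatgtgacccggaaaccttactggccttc
The match in Etfa has 10 of 12 letters and ends 65 bases before the start site, on the strand opposite to the gene. That of Acadm has 9 and that of Etfdh 8, a number reached by 74.5% of entries. A match is a description of letters in this window and says nothing on binding.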

How the data were processed

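Per the file headers, fluorescence intensity was read by the authors with Agilent Feature Extraction 10.10.1.1; the software subtracted the background and did not scale arrays to each other. The authors also deposited a log2 table of 31356 probes, made with limma per the submitters' processing notes, which was used as an alternative. The labels give 24 arrays of 22 animals, whereas the series text states 24 mice, and the 2 arrays of 2 WT animals were averaged. Log2 processed signals were set relative to each array's 75th percentile, without control and outlier spots. Probes well above background in at least 5 animals were kept (28138 with a symbol), and the brightest stood for its gene. One mean per group was fitted in limma 3.58.1 (R 4.3.3) to 17206 genes, with Benjamini-Hochberg adjustment. Pairs were tested by exact permutation in Python 3.11. Both steps were tested on simulated data. Positions are in mm9, as in the file headers, without an annotation of exons. The 10 genes matched the reference by accession. The 10 genes and the lists were chosen with earlier results of these data known, and all 10 are named, with up to 3 genes per list (largest difference of the fasting responses), the 3 genes of closest pattern and the flanking genes; a few genes that this rule names are not reported here. The number of animals limits the precision. Replicate numbers were not shown to pair the animals, with correlations of -0.181 to 0.177 over 31 same-numbered pairs, 5 of them over 0.1.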

Additional observations from a re-analysis of the deposited data

Results flagged for a closer look

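Among 40 groups of values tested for a stray animal, 1 stood out for each of 2 genes, which is what chance gives in about 1 of 20 groups. Acad11 was 6.95 in fasted WT replicate 4 against 7.14 to 7.20 in the other fasted WT livers. Etfdh was 3.80 in fasted LKO replicate 4 against 3.61 to 3.68 in the others.

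The fasting response differed between LKO and WT, by the interaction term in limma, in 8 genes. The difference, LKO change minus WT change on the log2 scale, was -1.16 for Etfdh (adjusted p = 3.47e-06), -1.03 for Acadm (1.25e-05), -0.58 for Acads (0.000514), -0.52 for Etfb (0.000165), -0.52 for Acad11 (0.000326), -0.45 for Acadvl (0.000514), -0.43 for Acad10 (0.0102) and -0.35 for Etfa (0.00342). For Etfa the value was -0.17 (adjusted p = 0.101) after quantile normalization and -0.18 (0.107) in the authors' deposited table.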

How the results depend on the processing

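The counts of called genes stayed within 1 of those given under every alternative: 9 to 10 for fasting in WT, 4 to 6 in LKO, 6 to 7 between fed genotypes, 9 to 10 between fasted genotypes and 7 to 9 for the difference of responses. Of 1790 values of single genes, 1752 kept their direction and call. The 3 that reversed were of Acad9: its fasted genotype difference was -0.56 by the brighter probe of its RefSeq transcript, an alternative chosen after seeing the data, and -0.26 by the mean of its probes, and its fasting change in WT was 0.04 by that RefSeq probe. The other 35 belong to Acad9, Acadvl and Etfa, and the cause was not tested. With a replicate block the only call that changed was that of Etfa on fasting in LKO (-0.13, adjusted p = 0.0647), and replicate numbers were not shown to pair animals. Within single slides, which mark scan times, none of 120 values reversed and 99 stayed within 1 SD. Unequal pairs numbered 7 to 8 for fasting in WT and 6 to 7 in LKO when each animal was left out in turn. All but 1 of the 20 probes were well above background in at least 21 animals.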
